A study of Anas platyrhynchos with 8 samples.

Results

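The most abundant long non-coding RNAs (lncRNAs) of duck abdominal fat were described across 8 RNA-seq libraries. An lncRNA was counted as abundant when its estimated count averaged 100 or more over the 8 libraries, and 204 of the 13220 deposited lncRNA entries (1.54%) met this rule. The libraries came from F2 ducks (Anas platyrhynchos) sampled at day 42, of which 4 had a high abdominal fat ratio (HF) and 4 a low one (LF). The birds of both groups shared 1 set of rearing conditions, with free access to feed and water, no treatment or introduced allele was named, and the labels did not give the sex of the birds. Whether birds were pooled was not stated, and p-values therefore measure the spread between libraries, which may be technical.

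Long non-coding RNAs are transcripts without a recognised protein-coding reading frame. Some act in the nucleus, where they bind chromatin or proteins and alter the transcription of genes, some act in the cytoplasm on mRNA stability or translation, and for most no role is known. They are usually less abundant and less conserved between species than mRNAs. In mammals a number of named lncRNAs affect the differentiation of adipocytes, the fat-storing cells of this tissue. Of 32 lncRNA gene symbols in wide use for vertebrates, 0 were among the symbols of the duck reference annotation (IASCAAS_PekinDuck_T2T). The abundant duck lncRNAs are therefore called here by their deposited identifiers. An identifier that begins with XR_ is a RefSeq non-coding model, and one that begins with TCONS_ is a transcript model assembled from reads.

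The 8 libraries held between 12788437 and 31008732 estimated counts over the mRNA and lncRNA tables together. The lncRNA table took a small share of them, 0.671%, 0.874%, 0.559% and 0.572% in HF-1 to HF-4, against 0.721%, 0.556%, 0.716% and 0.672% in LF libraries 1 to 4. The groups overlapped, with a mean of 0.669 ± 0.145% for HF, against 0.666 ± 0.0764% for LF (SD, n = 4 each). The difference of 0.0026 percentage points was smaller than the spread between libraries (two-sided exact permutation test, p = 0.943, where the smallest p that 4 against 4 allows is 0.0286). All 8 adipocyte markers looked up had counts, and their summed level was 17155 to 22211 CPM (counts scaled by library total and TMM factor) in HF and 18269 to 25302 CPM in LF. Among markers of other cells, 3 of 6 erythroid, 6 of 9 skeletal muscle and 7 of 7 macrophage genes had counts. Counts of 10 or more in every library were found for 3, 1 and 7 of these, and for 7 of the 8 adipocyte markers. In bulk tissue, fewer cells of a type and less RNA per cell cannot be told apart.

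The abundant lncRNAs carried most of the lncRNA signal. They held 70.3 ± 2.03% of lncRNA counts in HF, against 69.1 ± 2.11% for LF (SD, n = 4 each), with a range of 66.3% to 72.6% over the 8 libraries. By contrast, 6759 lncRNA entries were at 0 in all 8 libraries. Within the abundant set the counts were again concentrated. Ranked by mean count, the highest entry held on average 11.3% of all lncRNA counts and the highest 3 held 20.5%. By the same ranking the highest 10 held 31.9% and the highest 50 held 50.8%. There were 18 entries with a mean count of 1000 or more, and 108 of the 204 lay under 200. Since the set was chosen by its level, these shares describe it and were not tested. The entries just inside the limit were TCONS_00013793, XR_003495195.1 and XR_003496313.1, with mean counts of 101.5, 100.6 and 100.03. Just outside it were TCONS_00028083, XR_003498706.1 and XR_001188103.2, with mean counts of 99.96, 99.3 and 99.2.

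Both kinds of identifier contributed. Of the 204, 142 were RefSeq models, which is 1.19% of the 11943 RefSeq entries in the table, and 62 were assembled models, which is 4.86% of the 1277 assembled entries. These shares have unlike bases, since 6.88% of RefSeq and 32.5% of assembled entries passed a filter on low counts. Among entries that passed it, 142 of 822 RefSeq models and 62 of 415 assembled models were abundant. No entry of the curated NR_ class was in the table (0 entries). RefSeq models held 74.8 ± 1.22% of the abundant lncRNAs' counts in HF, against 75.8 ± 1.69% for LF (SD, n = 4 each). Of the 18 entries with a mean count of 1000 or more, 14 were RefSeq models and 4 were assembled.

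**Figure D1:**
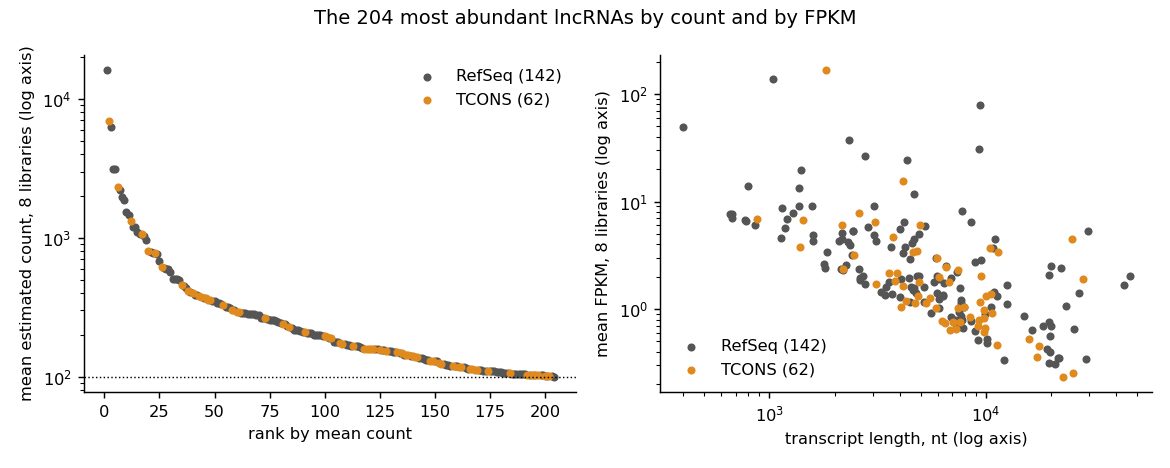
Left, mean estimated count over 8 libraries (log axis) against rank for the 204 abundant lncRNAs, with the limit of 100 dotted; right, mean FPKM (log axis) against transcript length in nucleotides (log axis). RefSeq models (142, grey) and assembled models (62, orange) are spread over the whole range of ranks, and long transcripts with many counts have low FPKM.

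Counts grow with the length of a transcript, so levels of different lncRNAs were compared in FPKM, the authors' value scaled to transcript length and sequencing depth. The lengths implied by the deposited counts and FPKM ran from 399 to 46235 nucleotides (nt), with a median of 5809 nt. The median was 5060 nt for RefSeq models and 6478 nt for assembled ones. Median FPKM was 2.02 for the 142 RefSeq models and 1.35 for the 62 assembled models. Per length, the order at the top changed. TCONS_00056770 (1830 nt) came first, with a mean of 167 FPKM, 177 ± 38.3 FPKM in HF and 158 ± 36.7 FPKM in LF. XR_217935.4 (1036 nt) came second, with 126 ± 10.1 FPKM in HF and 149 ± 7.89 FPKM in LF. XR_003497445.1, the entry with the most counts (9414 nt), followed them, with 77.4 ± 6.70 FPKM in HF and 79.7 ± 19.96 FPKM in LF. The ranges of the first and second overlapped in HF and in LF, and their difference within each library was not tested. XR_003497445.1 lay below both in every library. The shortest member, XR_003498818.1 (399 nt), came next, with 54.9 ± 34.9 FPKM in HF and 43.4 ± 15.1 FPKM in LF, and was chosen for mention after its values were seen. At the other end, XR_003494703.1 was eighth by mean CPM but had a mean of 2.05 FPKM; it was the longest model, at 46235 nt.

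XR_003497445.1 was the most abundant lncRNA by count in this fat. Its level was 642, 719, 783 and 747 CPM in HF-1 to HF-4, against 645, 713, 606 and 1078 CPM in LF libraries 1 to 4. The groups overlapped, and LF-4 was the highest of the 8 libraries. TCONS_00056770 followed with 333, 226, 419 and 314 CPM in HF and 199, 321, 269 and 383 CPM in LF. XR_001195209.3 had 468, 224, 181 and 305 CPM in HF, against 289, 383, 310 and 129 CPM in LF; it varied more within each group than between the group means. XR_001188104.2, a model of 29466 nt, had 167, 253, 111 and 99.7 CPM in HF and 183, 97.2, 161 and 161 CPM in LF. The groups overlapped for each of these as well.

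XR_217935.4 varied little in either group. It had 134, 122, 119 and 144 CPM in HF, against 142, 155, 154 and 172 CPM in LF, with coefficients of variation (CV, the SD as a percent of the mean) of 8.86% in HF and 7.79% in LF. The groups overlapped only in HF-4 and LF-1. TCONS_00003040, a model of 24856 nt whose deposited description names a hypothetical duck protein, had 104 ± 36.6 CPM in HF and 118 ± 17.2 CPM in LF (SD, n = 4 each). XR_003495649.1 had 97.6 ± 36.7 CPM in HF and 111 ± 45.8 CPM in LF. XR_003494703.1 had 79.2 ± 26.2 CPM in HF and 109 ± 27.4 CPM in LF. For each of these the groups overlapped. XR_003499406.1 averaged 97.7 ± 24.2 CPM in HF and 77.2 ± 7.73 CPM in LF, and XR_003493539.1 averaged 83.1 ± 39.3 CPM in HF and 62.9 ± 26.3 CPM in LF. The log2 fold changes (HF over LF) of the 10 entries highest by mean CPM lay between -0.47 and 0.40, with standard errors of 0.19 to 0.41. Both ends moved when 1 library was left out: XR_003493539.1 at 0.40 was 0.077 without HF-2 and 0.74 without LF-1, and XR_003494703.1 at -0.47 was -0.71 without HF-2. With the presence of W chromosome mRNA as a covariate, XR_001195209.3 was at 1.19 ± 0.52 (SE) and XR_003495649.1 at -0.82, against 0.084 and -0.18 without it. In the same model XR_003497445.1 was at -0.58 ± 0.21, against -0.073 without the covariate. These values rest on LF-4 as the single LF library that carries W mRNA.

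**Figure D2:**
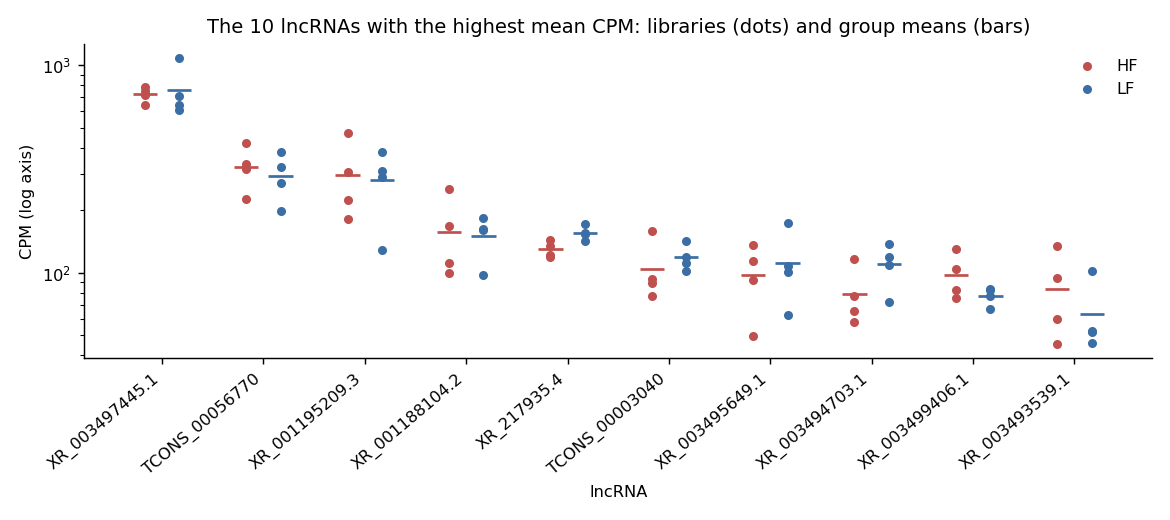
Level in CPM (log axis) of the 10 lncRNAs with the highest mean CPM, with HF libraries at the left (red) and LF libraries at the right (blue) of each pair; dots are libraries and bars are group means. The dots of the groups overlap for each of the 10, and XR_003497445.1 stands above the rest at 723 ± 59.8 CPM in HF and 760 ± 216 CPM in LF (SD, n = 4 each).

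To find lncRNAs related to fat deposition, the purpose the study names, all 204 abundant entries were compared; they passed the filter on low counts, and 181 of them had 10 or more estimated counts in every library. With edgeR's quasi-likelihood test and Benjamini-Hochberg adjustment, 0 of the 1237 lncRNAs tested (0%) and 0 of the 204 abundant ones had an adjusted p under 0.05. At an unadjusted p under 0.05 there were 57 lncRNAs (4.61% of those tested), of which 15 were abundant. Of these, 6 were higher in HF, where 1.7% of all tested were, and 9 were lower in HF, where 2.91% were. DESeq2 called 15 of 1237 (1.21%), including 5 of the 204, and limma on log2(FPKM + 1) called 5 of 569 (0.879%), including 4 of the 204. Without the filter on low counts edgeR called 39 of 6386 (0.611%), including 4 of the 204, and with the presence of W-described mRNA as a covariate it called 1 of 1237 (0.0808%), which was 1 of the 204. HF and LF levels did not overlap for 14 of the 204 abundant lncRNAs, 8 higher and 6 lower in HF. Over all lncRNAs tested the groups did not overlap for 66 of 1237 (5.34%), in either direction. Some of the 14, such as XR_003497816.1 and XR_003492471.1, reached the limit of 100 only through the group where they were high. XR_003493774.1 and TCONS_00070157 of the 8 were nearly missing from 3 LF libraries. The median log2 fold change of the 204 was -0.076, the same to that precision as the -0.076 over all 1237. It was -0.066 for the RefSeq models and -0.10 for the assembled models.

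**Figure D3:**
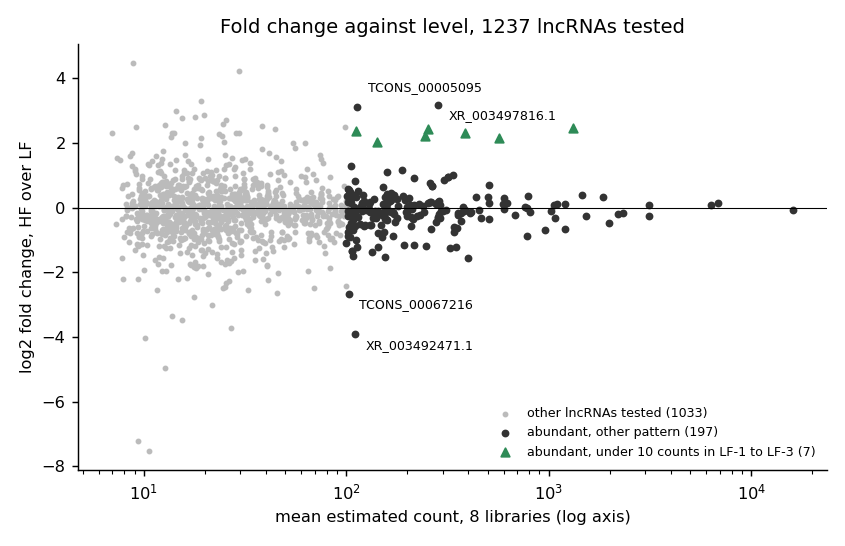
Log2 fold change (HF over LF) against mean estimated count (log axis) for the 1237 lncRNAs tested: 1033 below the limit of 100 in grey, 197 abundant in black, and 7 abundant with under 10 counts in LF-1 to LF-3 as green triangles. Fold changes narrow as counts grow, and the labelled entries, such as XR_003497816.1 at 3.18 and XR_003492471.1 at -3.92, stand away from the rest; 0 of the 1237 had an adjusted p under 0.05 in edgeR's test.

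Larger differences were seen in a few entries, 0 of which passed edgeR's adjusted threshold. XR_003497816.1 (4440 nt) had the smallest p among those higher in HF. It had 28.4, 11.1, 30.7 and 22.8 CPM in HF-1 to HF-4, against 2.28, 5.28, 1.95 and 0.723 CPM in LF-1 to LF-4. Every HF library was above every LF library, and the log2 fold change was 3.18 ± 0.62 (SE; edgeR adjusted p = 0.120). DESeq2 gave an adjusted p of 1.96e-04 and limma one of 0.0156. TCONS_00005095 (4292 nt) had 10.3, 4.34, 9.87 and 12.4 CPM in HF, against 0.532, 2.56, 1.09 and 0 CPM in LF. Its groups did not overlap either, with a log2 fold change of 3.12 ± 1.01 (edgeR adjusted p = 0.599). DESeq2 gave an adjusted p of 0.104 and limma one of 0.0334. No gene is paired with either identifier in the annotation used here.

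The other 3 entries with the smallest p among those higher in HF were assembled models with smaller differences. TCONS_00010931 had 10.1 ± 3.25 CPM in HF and 4.69 ± 1.62 CPM in LF, with HF-2 below LF-1. TCONS_00017841 had 6.71 ± 0.717 CPM in HF and 3.78 ± 1.08 CPM in LF without overlap. Like XR_003497816.1 and TCONS_00005095, TCONS_00017841 reached the limit through HF, with estimated counts of 55, 86, 113 and 73 in LF. TCONS_00061153, whose deposited description names the zinc finger CCCH domain-containing protein 11A of a swift, had 12.9 ± 6.57 CPM in HF and 5.78 ± 2.32 CPM in LF, also without overlap. Their log2 fold changes were between 0.83 and 1.15, and their adjusted p in edgeR's test between 0.677 and 0.886.

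XR_003492471.1 (1814 nt) had the smallest p of the 204. It had 1.15, 0.420, 0.226 and 0.415 CPM in HF-1 to HF-4, against 4.33, 10.4, 3.86 and 15.3 CPM in LF-1 to LF-4. Every HF library was below every LF library, and the log2 fold change was -3.92 ± 0.68 (edgeR adjusted p = 0.104). XR_003492471.1 reached the limit through LF, with estimated counts of 28, 6, 5 and 9 in HF, against 57, 309, 85 and 382 in LF. The size of its fold change thus rests on few HF counts. DESeq2 gave an adjusted p of 3.71e-05 and limma one of 0.0248. TCONS_00067216 had 1.63, 0.977, 0.314 and 1.86 CPM in HF, against 2.35, 5.27, 11.2 and 11.5 CPM in LF, with a log2 fold change of -2.66 ± 0.67 (edgeR adjusted p = 0.304, DESeq2 adjusted p = 0.0170, limma adjusted p = 0.199) and no overlap. TCONS_00067216 also reached the limit through LF, with estimated counts of 39.7, 14.0, 6.93 and 40.4 in HF. TCONS_00038080 had 8.63 ± 2.85 CPM in HF and 25.5 ± 18.3 CPM in LF, where LF-1 at 7.22 CPM lay within the HF range.

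A pair of entries lower in HF matched genes that the reference places on the Z chromosome, the sex chromosome of which male birds carry a pair and female birds a single copy. XR_003492889.1 (LOC113840139, between PDE8B, a cyclic nucleotide phosphodiesterase, and AGGF1, an angiogenic factor) had 2.63, 2.52, 2.72 and 2.90 CPM in HF, against 5.93, 6.73, 5.81 and 9.0 CPM in LF. The HF libraries lay close together, below every LF library. XR_003492889.1 reached the limit through LF, with estimated counts of 64, 36, 60 and 63 in HF, against 78, 200, 128 and 224 in LF. Its log2 fold change was -1.35 ± 0.30 (edgeR adjusted p = 0.222, DESeq2 adjusted p = 0.00227, limma adjusted p = 0.0372). XR_003492841.1 (LOC113840110, between TOPORS and TMEM215) had 10.3, 12.5, 10.1 and 6.75 CPM in HF, against 27.3, 23.1, 24.5 and 16.5 CPM in LF, with a log2 fold change of -1.21 ± 0.30 (edgeR adjusted p = 0.304, DESeq2 adjusted p = 0.0326, limma adjusted p = 0.0794). Here LF-4 was the LF library nearest to HF, whereas for XR_003492889.1 it was the farthest. LF-4 was also the single LF library that carried mRNAs described as W-linked, as all HF libraries did. Fat group and the presence of W mRNA cannot be told apart for this pair. Of the mRNAs of the neighbours, TOPORS, a ubiquitin and SUMO ligase, had 184 ± 23.6 CPM in HF and 186 ± 11.8 CPM in LF, and AGGF1 had 25.2 ± 2.64 CPM in HF and 35.1 ± 9.21 CPM in LF.

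**Figure D4:**
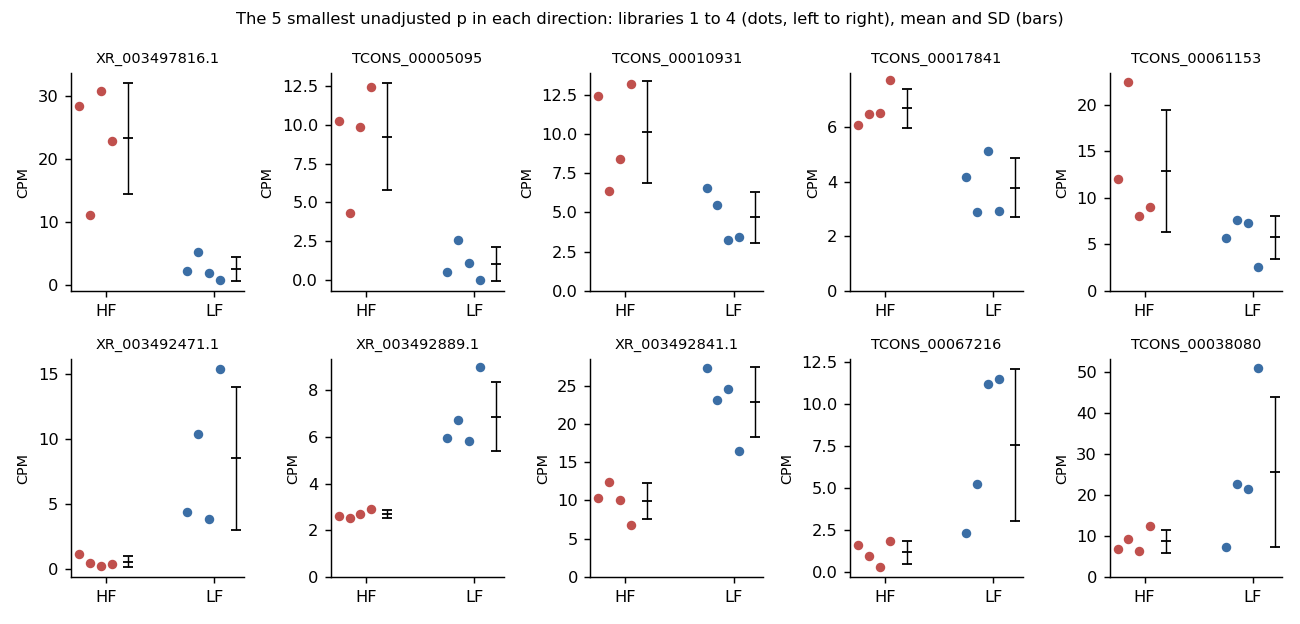
Level in CPM of the 5 abundant lncRNAs with the smallest unadjusted p higher in HF (upper row) and the 5 lower in HF (lower row); red dots are HF libraries 1 to 4 and blue dots LF libraries 1 to 4 from left to right, with the mean and SD beside them (n = 4 each). XR_003497816.1 is at 11.1 CPM or more in HF and 5.28 CPM or less in LF, and XR_003492471.1 at 1.15 CPM or less in HF and 3.86 CPM or more in LF; 0 of the 10 had an adjusted p under 0.05 in edgeR's test.

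In 7 of the 204, LF-4 stood with the HF libraries. They were TCONS_00070945, XR_003493767.1, XR_003493774.1, XR_003493773.1, XR_003493501.1, XR_003494409.1 and TCONS_00070157, and each had 100 or more counts in LF-4 and every HF library, but under 10 in LF-1, LF-2 and LF-3. The mRNAs described as W-linked or Wpkci (a W gene), from the chromosome that only female birds carry, had the same distribution, with summed counts of 4226, 1818, 3410 and 2846 in HF libraries 1 to 4, against 8, 7, 3 and 2861 in LF libraries 1 to 4. The annotation used here does not place these 7 identifiers on a chromosome. Summed over the 7, the level was 254.6, 303, 176 and 232 CPM in HF, against 1.07, 0.544, 0.398 and 188.0 CPM in LF. They made up 3.65 ± 0.392% of lncRNA counts in HF (SD, n = 4), so this group of entries was a visible share of the lncRNA table in 5 of the 8 libraries and nearly missing from the other 3.

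TCONS_00070945 was the most abundant of these 7, and the twelfth by mean count of all lncRNAs. Its estimated counts were 2793, 2219, 1482 and 2102 in HF libraries 1 to 4, against 9, 8, 1 and 1922 in LF libraries 1 to 4. Its deposited description names a brain-specific angiogenesis inhibitor 3-like protein of the rifleman, a passerine bird. XR_003494409.1 was at 0 in LF-1, LF-2 and LF-3 and had 261 counts in LF-4, and 280, 181, 188 and 224 in HF. LF-4 carried all 7, and the comparison over 4 and 4 libraries gave an adjusted p of 0.963 for each of them in edgeR's test. Without LF-4 the same test called all 7 higher in HF, along with XR_003497816.1, and called XR_003492471.1 lower, with 27 of 1391 lncRNAs called in all (1.94%). The 7 were grouped by this pattern, so these calls describe it and add no separate evidence. Libraries with 100 or more W-described mRNA counts were 4 of 4 in HF and 1 of 4 in LF. The presence of W mRNA and the fat group thus nearly coincide, and cannot be told apart in the comparisons of HF with LF. In a model with the presence of W-described mRNA as a covariate, which rests on LF-4 as the single LF library that carries it, the log2 fold changes were 5.0 ± 1.01 for XR_003497816.1, -4.77 ± 0.77 for XR_003492471.1, -1.74 ± 0.41 for XR_003492889.1 and -0.74 ± 0.42 for XR_003492841.1. Their adjusted p in edgeR's test with this covariate were 0.204, 0.0883, 0.269 and 0.888.

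The median CV over the 204 was 39.1% in HF and 35.3% in LF, against 52.9% in HF and 48.1% in LF over all 1237 lncRNAs tested. The 14863 mRNAs with a mean count of 100 or more had a median CV of 25% in HF and 26.8% in LF. These mRNAs were not matched to the 204 for level, and the median of the mean counts of the 204 was 190. In HF, 29 of the 204 had a CV under 20% and 5 had one over 100%, and in LF 33 were under 20% and 15 over 100%. Those 15 include the 7 entries with under 10 counts in LF-1 to LF-3, at 195% to 200% in LF. XR_003495216.1 was among the steady ones in HF with 28.4 ± 1.12 CPM, and XR_001191816.3 varied by under 10% in each group, with CVs of 9.59% in HF and 7.94% in LF. Both were chosen for mention after their values were seen.

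HF-2 was the highest HF library for 118 of the 204, and without HF-2 the median CV in HF was 28.5%. HF-2 and LF-1 were also the shallowest libraries of their groups, with 13361262 and 12788437 counts over both tables. The pattern differed by transcript length. Of the 45 abundant lncRNAs of 10 kb or more, HF-2 was the highest HF library for 35, and LF-1 or LF-3 the highest LF library for 39. Of the 27 under 2 kb, HF-2 was the highest HF library for 8, and LF-1 or LF-3 the highest LF library for 7. The summed level of the long ones was 1041, 1713, 788 and 857 CPM in HF-1 to HF-4, against 1461, 867, 1493 and 1105 CPM in LF libraries 1 to 4. The summed level of the short ones was 720, 601, 802 and 703 CPM in HF, against 502, 687, 555 and 837 CPM in LF, so that the libraries highest for long transcripts were the lowest for short ones. Among mRNAs of 10 kb or more the same libraries were highest within their groups but less far apart, at 7.76%, 8.45%, 7.34% and 7.23% of all counts in HF and 7.70%, 7.47%, 8.45% and 7.19% in LF. Within each group, then, libraries differed by length class by more than the group means did, which were 1100 ± 423 CPM in HF and 1231 ± 300 CPM in LF for the long ones, and 707 ± 82.7 CPM in HF and 645 ± 150 CPM in LF for the short ones. The mitochondrial transcripts' share of all counts was 1.48%, 2.1%, 1.42% and 1.78% in HF, against 4.30%, 1.54%, 1.89% and 1.46% in LF, so HF-2, LF-1 and LF-3 were also the highest of the 8 in it, and LF-1 stood apart. The part of depth or of the mitochondrial share in this pattern was not tested.

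**Figure D5:**
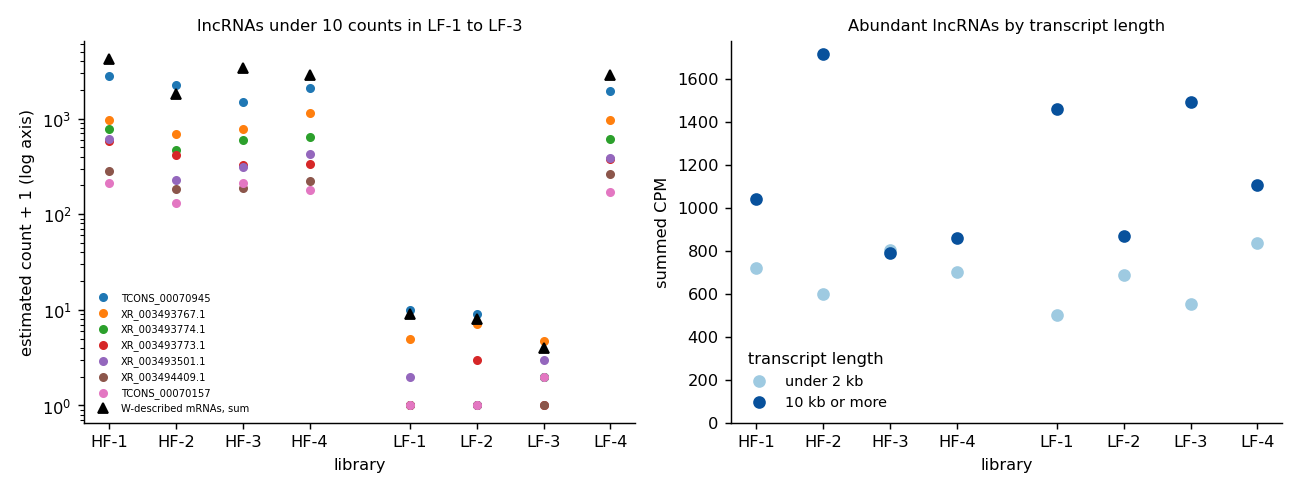
Left, estimated counts plus 1 (log axis) of the 7 abundant lncRNAs with under 10 counts in LF-1 to LF-3 and of the summed W-described mRNAs (triangles), by library; right, summed CPM of the abundant lncRNAs of 10 kb or more (dark, 45) and under 2 kb (pale, 27). LF-4 lies with the HF libraries at the left, and HF-2, LF-1 and LF-3 have the highest sums of long transcripts, at 1713, 1461 and 1493 CPM, and the lowest of short ones.

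Other entries were nearly missing from 1 or a few libraries. Besides the 7 above, 16 of the 204 had under 10 counts in at least 1 library. XR_003499584.1, with the highest CV in HF, had 0.702, 0.488, 2.37 and 17 CPM in HF, against 6.59, 17.4, 8.92 and 4.74 CPM in LF. TCONS_00063417, of 25274 nt, had 2.11, 12, 0 and 0.872 CPM in HF, against 13.3, 0, 15.6 and 5.90 CPM in LF, and its high libraries were those of the long transcripts. Among entries chosen after their values were seen, XR_003499272.1 had 33.3 to 68.5 CPM in HF and 50.9 to 88.5 CPM in 3 LF libraries, but 0.0875 CPM in LF-2. XR_003492176.1 was at 0 in HF-2 and in LF-4, and between 17.6 and 40.5 CPM in the other libraries of both groups.

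The 204 held 15 pairs with consecutive identifiers. Most pairs had a positive Pearson correlation over the 8 libraries. The values ran from 0.26 for XR_003495194.1 and XR_003495195.1 to 0.98 for XR_003497687.1 and XR_003497688.1. Pairs without consecutive identifiers were not compared. Negative correlations were the exception, at -0.52 for XR_003497445.1 and XR_003497446.1. The most negative, -0.88, was that of TCONS_00000942 and TCONS_00000943, of 10627 and 10547 nt. TCONS_00000942 had 0, 0, 9.53 and 14.6 CPM in HF, against 23.8, 6.21, 23.8 and 0 CPM in LF. TCONS_00000943 had 23.2, 35.1, 11.1 and 4.60 CPM in HF, against 3.84, 10.3, 1.21 and 25.6 CPM in LF. Where one was high the other was low, and their CVs over the 8 libraries were 104% and 84.9%, while that of their sum was 23.8%. The sum was 24.5 ± 7.23 CPM in HF and 23.7 ± 4.93 CPM in LF (SD, n = 4 each), steadier than either model. XR_003493365.1 and XR_003494096.1 had identical values in every library.

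Annotation of the 204 was thin. The deposited descriptions, which name a protein of similar sequence, were filled for 23 of them, all assembled models. Most name hypothetical or uncharacterized proteins. Those that name a known one include TCONS_00015313 (PINK1, a mitochondrial kinase), TCONS_00047835 (transcription factor Maf) and TCONS_00001505 (male-specific lethal 3 homolog, a chromatin protein), all chosen for mention after the values were seen. The files do not say whether such models hold coding sequence. Of the 142 RefSeq models, 16 matched 15 genes of the reference annotation, and the others had no match.

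Of the 15 matched genes, 8 overlapped the span of a protein-coding gene, introns included. Whether their exons overlap was not checked, and the strand setting of the counting was not given in the sources used here. Whether counts of the lncRNA hold reads of its partner is therefore not known. XR_002399139.2 (LOC106014972) overlapped HLCS, the ligase that attaches biotin to carboxylases, and averaged 66.2 CPM in HF and 79.4 CPM in LF, against 627 ± 57.6 CPM in HF and 794 ± 167 CPM in LF for HLCS. XR_002401651.2 (LOC110352558) overlapped KCTD5, an adaptor of a ubiquitin ligase, and averaged 56.6 CPM in HF and 52.5 CPM in LF, against 208 ± 19.2 CPM in HF and 225 ± 52.3 CPM in LF for KCTD5. XR_003494242.1 (LOC113841853) overlapped ZBTB21, a zinc finger repressor, and averaged 30.0 ± 11.7 CPM in HF and 18.5 ± 8.34 CPM in LF with overlapping groups. These matched entries were chosen for mention after their values were seen.

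Markers of other cells that could be in a fat sample gave the following levels. The macrophage genes summed to 991 to 1430 CPM in HF and 610 to 1080 CPM in LF, overlapping between groups, and the skeletal muscle genes to 9.79 to 76.0 CPM in HF and 5.46 to 184 CPM in LF, with MYH1E, CKM and PYGM not found with counts. The erythroid genes summed to 189 to 629 CPM in HF and 226 to 503 CPM in LF, with HBBA, SLC4A1 and ALAS2 not found with counts. The 5 gut and liver genes summed to 1356 to 4366 CPM in HF and 8274 to 12133 CPM in LF without overlap. Nearly all of that sum was APOA1, an apolipoprotein that birds also make outside the liver. ALB was at 0.0922 to 27.0 CPM in HF and 0.182 to 31.8 CPM in LF. VIL1 was at 5.95 to 21.3 CPM in HF and 5.67 to 10.5 CPM in LF. TTR and FGB were at 0 in 5 and 4 of the 8 libraries. Within their groups, HF-3 and LF-4 were the highest for ALB, TTR and FGB, with ALB at 4.19 CPM or less elsewhere. HF-3 and LF-4 were also the highest of their groups for XR_003497445.1 and TCONS_00056770. The part of these cells in the lncRNA values was not tested.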

How the data were processed

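Abdominal fat RNA (Trizol) of 8 samples was turned into cDNA libraries and read on an Illumina HiSeq instrument, per the labels' protocols. The authors deposited estimated counts and FPKM per transcript in an mRNA and an lncRNA table, per the file headers. Per the submitters' processing notes, Bowtie2 2.2.8 and TopHat2 2.1.1 were used, for which step is not said; build, quantifier and strand setting were not given in the sources used here. Both tables gave the library totals and TMM factors behind CPM. Rounded counts were tested with edgeR 4.0.16 (filterByExpr, quasi-likelihood, Benjamini-Hochberg over 1237 lncRNAs), with DESeq2 1.42.0 and limma 3.58.1 (log2(FPKM + 1), mean FPKM of at least 0.5) as alternatives, in R 4.3.3. The deposited counts were estimates and not whole numbers, and were rounded for edgeR and DESeq2. CPM carries the spread between libraries only. Transcript lengths were computed from counts, FPKM and totals; for 13 mitochondrial transcripts they fell within 0.0223 nt of a whole number.

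Tested on simulated counts of 1072 lncRNAs, edgeR called 1 of 58 2-fold changes, 14 of 53 4-fold ones and 40 of 60 8-fold ones. It also called 1 of 901 unchanged entries. Each simulated entry was drawn on its own, without the patterns that entries share across libraries. Of 200 entries changed, only those that passed the filter on low counts were scored. Entries were drawn at the levels of all lncRNAs tested, with a median mean count of 27.1, against 190 for the 204. The rates are therefore not those of the abundant set. The members and lists were chosen with earlier results of these data known. Named were the 10 highest entries and the 5 highest of each identifier class, both by mean CPM, and the 5 smallest p in each direction. The 3 highest CVs per group and the 3 entries on each side of the limit were named too. Same-numbered HF and LF libraries had deviations correlated at 0.041, -0.16, -0.0040 and -0.0066. These values show no pairing by number but cannot exclude one in the design. Intergroup tests are two-sided.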

Additional observations from a re-analysis of the deposited data

Results flagged for a closer look

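In groups of 4, the library farthest from the others was set against the group's whole range (Dixon's test), which flags about 1 group in 20 by chance. Of 80 groups examined for the named lncRNAs and shares, 9 were flagged. This count cannot be read against chance, since 7 of the 9 were grouped for this very pattern and XR_003499584.1 was named for its CV in HF. In HF, XR_003499584.1 was at 17 CPM in HF-4 and at 0.488 to 2.37 CPM in the other libraries. In LF, XR_003493539.1 was at 102 CPM in LF-1 and at 45.5 to 52.4 CPM in the others.

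The other 7 flags were the lncRNAs that LF-4 shares with the HF libraries. In LF-4 the level was 77.2 CPM for TCONS_00070945, 38.3 CPM for XR_003493767.1, 24.5 CPM for XR_003493774.1 and 15.7 CPM for XR_003493501.1. It was 15 CPM for XR_003493773.1, 10.5 CPM for XR_003494409.1 and 6.77 CPM for TCONS_00070157. The other LF libraries were at 0.684 CPM or less for each of these.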

How the results depend on the processing

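Adjusted calls depended on the tool and on LF-4. Over all lncRNAs tested, for abundant ones higher in HF and for abundant ones lower in HF, the counts were 15, 1 and 4 with DESeq2, 5, 2 and 2 with limma on log2(FPKM + 1), and 39, 2 and 2 of 6386 without the filter on low counts (0.611%). With the W covariate they were 1 (0.0808%), 1 and 0, the call being XR_003500710.1, which is at 0 in LF-4. At an unadjusted p under 0.05 they were 57, 6 and 9, a threshold chosen after seeing the data. Leaving out each library in turn gave 0 to 27, 0 to 8 and 0 to 1, with calls only without LF-4. No call was made with the replicate block (0 calls), with the 3 other scalings or with entries summed per gene. The cause of these differences was not tested.

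Some log2 fold changes turned round. With TMM of the lncRNA table alone XR_003497445.1 was at 0.068, against -0.073. With the replicate block XR_001188104.2 was at -0.017, against 0.066. With the W covariate the values were -0.24 for TCONS_00056770 (0.14 without it), -0.030 for XR_001188104.2 (0.066), 0.046 for TCONS_00003040 (-0.18), 0.12 for XR_003499584.1 (-0.87) and 10.02 for TCONS_00000942 (-1.15), the last a fitted value over libraries at 0 and no bound. Without 1 library the ranges were -0.17 to 0.14 for XR_003497445.1, -0.0096 to 0.30 for TCONS_00056770, -0.23 to 0.28 for XR_001195209.3, -0.26 to 0.23 for XR_001188104.2, -0.38 to 0.11 for XR_003495649.1, -0.19 to 0.25 for TCONS_00063418 and -0.58 to 0.049 for TCONS_00013793. Of the alternatives run on named lncRNAs, 548 kept direction and side of the threshold, 22 passed it and 21 turned round.

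A limit of 50 gave 378 abundant entries with 78.5% of lncRNA counts, and a limit of 200 gave 96 with 59.4%, of which RefSeq models held 77.4%. At the limit of 100, RefSeq models held 75.3% of the 204 entries' counts and 72.3% of their FPKM. The difference between groups in the lncRNA share was -0.0018 percentage points without mitochondrial transcripts, and -0.066 (without HF-2) to 0.039 (without HF-3) without 1 library. Depth limits entries near 100 counts, and 23 of the 204 had under 10 counts in at least 1 library.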
